A study of Mus musculus with 81 samples.

Results

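Cells sorted as CD229neg CD11cneg from mice with a conditional loss of Egr2 were compared with the same sort from Cre control mice after 6 weeks of dietary cuprizone. The libraries were chosen by their labelled genotype, diet and gate: 3 Egr2KO and 3 Cre libraries, 6 of the 81 in the series. Egr2KO mice were Cx3cr1CreERT2/WT::Egr2fl/fl and Cre mice were Cx3cr1CreERT2/WT, so both groups carry the inducible Cre allele in place of 1 copy of Cx3cr1, and neither stands for an unmodified mouse. All were adult male C57BL/6 mice on a diet with 0.2% cuprizone. Each library held sorted cells of the pooled brains of 2 to 6 mice. The Cre is expressed from the Cx3cr1 gene, which is active in microglia and other mononuclear phagocytes. The floxed exons and any tamoxifen dosing are not given in the sources used here. For comparison, the same 2 genotypes were also sorted as CD229pos CD11cneg and CD229pos CD11cpos at 6 weeks (3 libraries a group), ungated at 5 weeks of cuprizone (2 a group), and ungated at baseline without cuprizone (2 Egr2KO and 3 Cre).

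Egr2 encodes a zinc finger transcription factor of the early growth response family, best known in Schwann cells, where it drives myelin genes, and in macrophages and T cells, where it is induced by activating signals. NAB1 and NAB2 are corepressors that bind EGR proteins. Cuprizone is a copper chelator that kills oligodendrocytes and so demyelinates the brain, and microglia that clear the debris take on a state marked by CD11c (Itgax), CD229 (Ly9, a SLAM family receptor) and lipid handling genes such as Apoe and Lpl. The CD229neg CD11cneg cells were sorted as lacking both surface proteins.

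The 6 libraries held 4387075 to 11555102 counted reads (Egr2KO) and 7671177 to 13177852 (Cre). The 50 genes with the most reads took 7.56%, 6.30% and 8.21% of reads in the Egr2KO libraries numbered 1 to 3, against 7.64%, 6.32% and 5.91% in the Cre libraries, so the libraries numbered 3 differed most in composition. Summed markers of oligodendrocytes, astrocytes, neurons, T cells and neutrophils overlapped between genotypes, and the neutrophil genes S100a8, S100a9 and Ly6g and the T cell genes Cd3e and Cd3g had 0 reads in all 6 libraries. The 8 border macrophage markers summed to 46.9 to 75.9 CPM (a gene's reads over the library's scaled total, times 1000000) in Egr2KO and 66.8 to 98.0 CPM in Cre libraries, led by Mrc1, and overlapped. Of the 8, 2 had a positive log2 fold change and none passed the test. Their median log2 fold change was -0.52, and -0.95 without both libraries numbered 3. It was also below 0 in CD229pos CD11cneg cells (-0.77), CD229pos CD11cpos cells (-2.10), baseline cells (-1.92) and ungated cuprizone cells (-0.80). The part of these cells in the results was not tested. Fewer cells of a type and less RNA per cell cannot be told apart in such bulk libraries. In every 6-week gate the libraries numbered 2 and 3 of both genotypes have PE150 in their titles, a tag the labels do not explain, and those numbered 1 do not. Nothing in the labels says that replicates came from separate cohorts, so p-values measure the spread between pools.

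Egr2 transcript was lower in the Egr2KO cells by library but did not pass the test. It had 9.87, 10.997 and 11.6 CPM in Egr2KO libraries, against 14.1, 17.7 and 26.1 CPM in Cre libraries. Every Egr2KO library lay below every Cre library, and the log2 fold change was -0.89 ± 0.27 (SE; edgeR adjusted p = 0.339). With only the 6 compared libraries in the fit, the adjusted p was 0.0112 at a log2 fold change of -0.90. The table sums reads over the whole RefSeq transcript at chr10:67537869-67542188 (mm10, plus strand), so reads from exons that recombination leaves in place still count. Egr2 was scarce in this gate in both genotypes: in CD229pos CD11cneg cells it had 22.4, 32.5 and 42.1 CPM in Egr2KO and 32.3, 57.1 and 60.4 CPM in Cre libraries, and in CD229pos CD11cpos cells 78.3, 77.2 and 87.5 CPM in Egr2KO and 119, 97.5 and 112 CPM in Cre libraries. The drop passed the test only in the ungated 5-week cells, with 18.2 and 25.9 CPM in Egr2KO and 68.97 and 67.4 CPM in Cre libraries (log2 -1.61, edgeR adjusted p = 3.99e-05). At baseline Egr2 stood at 4.33 and 2.71 CPM in Egr2KO and 4.67, 2.79 and 2.78 CPM in Cre libraries, and the groups overlapped.

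**Figure D1:**
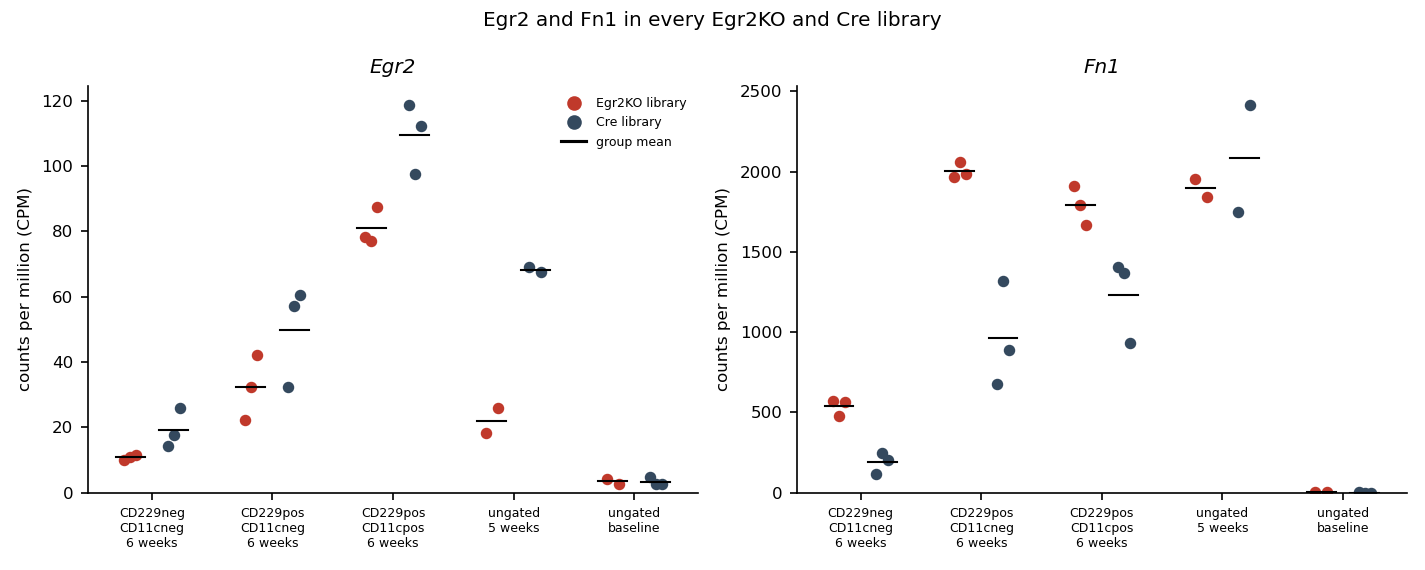
CPM of Egr2 (left) and Fn1 (right) in each Egr2KO (red) and Cre (dark) library, by sorted population, with group means as black lines. In CD229neg CD11cneg cells the Egr2KO libraries lie below the Cre libraries for Egr2 and above them for Fn1, while at 5 weeks the Fn1 values overlap.

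None of the other EGR genes, the NAB genes or the gate genes passed the test, and in each the genotypes overlapped. Egr1, an immediate early gene, had 806, 508 and 342 CPM in Egr2KO and 773, 488 and 791 CPM in Cre libraries. Egr3 had 17.6, 27.3 and 18.5 CPM in Egr2KO and 17.03, 11.9 and 27.5 CPM in Cre libraries, and Egr4 had 0 reads in all 6. Nab1 (log2 0.06) and Nab2 (log2 0.16) also overlapped between genotypes. Of the surface genes behind the sort, Ly9 had 28.5, 49.7 and 62.5 CPM in Egr2KO and 34.7, 51.3 and 43.7 CPM in Cre libraries, and Itgax 51.8, 59.7 and 90.9 CPM in Egr2KO and 46.6, 67.3 and 99.2 CPM in Cre libraries. Both genes were lowest in the libraries numbered 1 of their genotype, whichever the genotype. Clec7a, a lectin receptor of activated microglia, and Cx3cr1, the fractalkine receptor that the Cre allele interrupts, overlapped as well (log2 0.14 and 0.25).

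Across the transcriptome, 18 of 13187 genes passed the test (0.136%): 12 were higher (0.0910%) and 6 were lower (0.0455%) in Egr2KO CD229neg cells (Benjamini-Hochberg adjusted p under 0.05, edgeR quasi-likelihood test). Of these, 7 of the higher and 1 of the lower genes changed at least 2-fold. In all 18 the 3 Egr2KO libraries lay to one side of the 3 Cre libraries, which was true of 11.8% of all genes tested. Passing the test on these same libraries makes such a split likely, so it is no separate support. At an unadjusted p under 0.05 there were 1045 genes.

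Fn1 (chr1:71585473-71653234, mm10), fibronectin of the extracellular matrix, took the most reads of the higher genes, and of the 18 it alone passed the test under all 16 alternative settings. It had 568, 479 and 566 CPM in Egr2KO libraries, against 116, 248 and 205 CPM in Cre libraries, a log2 fold change of 1.49 ± 0.21 (SE; edgeR adjusted p = 0.00155). Even the lowest Egr2KO library stood well above the highest Cre library. Among the others were genes for secreted proteins. Cxcl14, a chemokine, had 13.5, 16.7 and 11.1 CPM in Egr2KO and 2.47, 5.81 and 5.14 CPM in Cre libraries (log2 1.61 ± 0.33). Lgi2, a secreted leucine-rich repeat protein, had 19.7, 19.1 and 17.5 CPM in Egr2KO and 3.16, 6.23 and 6.88 CPM in Cre libraries (log2 1.72 ± 0.32). In both, the Cre library numbered 1 was the lowest of the 6.

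Plxna2, a plexin receptor for semaphorins, had 6.01, 8.86 and 8.15 CPM in Egr2KO and 1.65, 1.35 and 2.39 CPM in Cre libraries (log2 2.08 ± 0.43). Adora1, the adenosine A1 receptor, had 19.2, 21.6 and 24.7 CPM in Egr2KO and 7.83, 12.03 and 11.7 CPM in Cre libraries (log2 0.98 ± 0.16). Neither gene overlapped between genotypes, and Plxna2 was low in every Cre library. Hcar2, the receptor for niacin and beta-hydroxybutyrate, had 35.9, 38.3 and 43.5 CPM in Egr2KO and 18.8, 22.5 and 22.2 CPM in Cre libraries. Cd72, a lectin-like inhibitory receptor described in B cells, had 46.9, 54.7 and 64.99 CPM in Egr2KO and 23.9, 32.8 and 33.4 CPM in Cre libraries. Both rose by a little under 2-fold (log2 0.86 and 0.84).

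The remaining higher genes had other roles. Ch25h, which makes 25-hydroxycholesterol, had 44.1, 68.6 and 50.7 CPM in Egr2KO and 16.3, 31.2 and 33.2 CPM in Cre libraries. Baiap2l2, a protein that bends membranes and binds actin, had 25.8, 35.5 and 21.99 CPM in Egr2KO and 10.3, 16.5 and 12.96 CPM in Cre libraries. Both sat near 2-fold (log2 1.00 and 1.11). Fxyd5, a regulator of the sodium pump, had 33.1, 45.7 and 35.3 CPM in Egr2KO and 15.2, 24.2 and 23.1 CPM in Cre libraries. Tmem51, a membrane protein, had few reads, with 4.44, 5.83 and 1.98 CPM in Egr2KO and 0.137, 0.421 and 0.651 CPM in Cre libraries (log2 3.33 ± 0.57). The twelfth gene, the non-coding RNA 4930563J15Rik, lies beside Egr2 and is described with its neighbours.

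Of the 6 lower genes, St8sia6 fell by more than 2-fold and the others by less. St8sia6 (chr2:13654936-13793520), a sialyltransferase that builds sialic acid caps on glycans, had 11.9, 12.6 and 19.3 CPM in Egr2KO libraries, against 24.3, 29.7 and 35.03 CPM in Cre libraries (log2 -1.14 ± 0.22; edgeR adjusted p = 0.0213). Coro2a (chr4:46536937-46601929), a coronin that binds actin and is found with the NCoR corepressor, had 50.5, 50.6 and 49.9 CPM in Egr2KO and 71.1, 77.6 and 81.7 CPM in Cre libraries (log2 -0.61 ± 0.09; edgeR adjusted p = 0.00155). Its 3 Egr2KO libraries were nearly identical and all lay below the Cre libraries. Ide, insulin-degrading enzyme, had 92.5, 82.7 and 74.1 CPM in Egr2KO and 126, 103 and 138 CPM in Cre libraries. Hdac9, a class IIa histone deacetylase, had 39.5, 35.2 and 32.4 CPM in Egr2KO and 51.8, 54.02 and 48.8 CPM in Cre libraries. Both were modest drops (log2 -0.55 and -0.52). Mras, a Ras family GTPase, and Nipal3, of a magnesium transporter family, had the smallest changes (log2 -0.42 and -0.39; for Nipal3 the edgeR adjusted p was 0.0496).

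**Figure D2:**
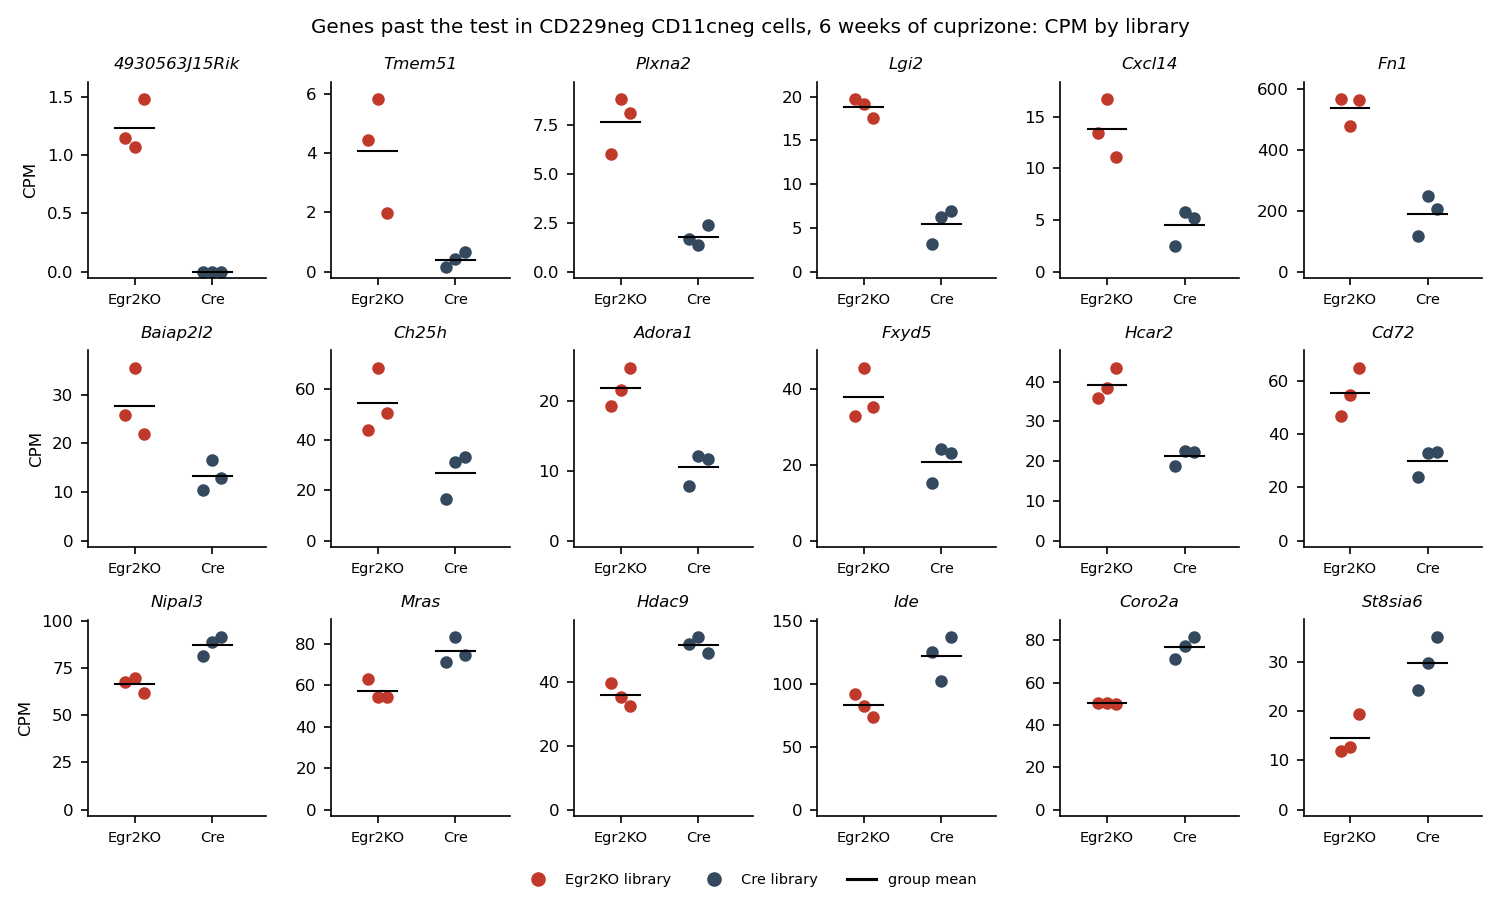
CPM of the 18 genes past the test in each CD229neg CD11cneg library, Egr2KO (red) and Cre (dark), with group means as black lines. The groups do not overlap in any panel, and 4930563J15Rik has 0 reads in the 3 Cre libraries.

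The number of genes past the test depended on the libraries and on how the spread was estimated. Without the Egr2KO libraries numbered 1, 2 and 3 in turn, 15, 2 and 10 of the 18 still passed, and without the Cre libraries numbered 1, 2 and 3 in turn, 8, 6 and 10. All 18 kept their direction in each of these fits and under the other 10 alternatives. With no overlap between genotypes to begin with, leaving libraries out could hardly reverse a sign, so this adds no support. Within the PE150 libraries alone 16 of the 18 passed, without Lgi2 and 4930563J15Rik, and with the tag as a covariate all 18 did. Genes just short of the threshold included Igfbp5, which binds insulin-like growth factors, with 16.2, 15.1 and 14.3 CPM in Egr2KO and 2.20, 5.55 and 6.01 CPM in Cre libraries. Cst7, a cystatin of activated microglia, had 91.9, 113 and 92.9 CPM in Egr2KO and 53.3, 67.3 and 58.2 CPM in Cre libraries (edgeR adjusted p = 0.0518 for both genes). On the lower side, Unc79, Pde4d, Rapgef6 and Nup50 had log2 fold changes of -1.58, -0.74, -0.40 and -0.29 and did not pass, with edgeR adjusted p of 0.0675, 0.0870, 0.123 and 0.137.

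The 18 genes were then read in sorts that share no library with this comparison, although sorts of one genotype may come from the same pools. In CD229pos CD11cneg cells, where 3.00% of genes tested passed (1.80% higher and 1.20% lower), all 18 had the same sign and 17 passed, 12 higher and 5 lower, the exception being Nipal3 (log2 -0.12). In CD229pos CD11cpos cells, where 0.379% of genes passed, all 18 again had the same sign and 8 passed; the 17 genes with reads in every group each had a smaller fold change than in CD229neg cells. In CD229pos CD11cneg cells 14 of the 18 fold changes were smaller than in CD229neg cells. For Fn1 the log2 fold change was 1.49 ± 0.21 in CD229neg cells, 1.06 ± 0.20 in CD229pos CD11cneg cells and 0.54 ± 0.20 in CD229pos CD11cpos cells. Its level in Cre libraries climbed at the same time, with 679, 1319 and 891 CPM in CD229pos CD11cneg cells. The 4 that were not smaller in CD229pos CD11cneg cells were Adora1 (log2 1.29), St8sia6 (log2 -1.15), Mras (log2 -0.45) and 4930563J15Rik, whose Cre libraries had no read.

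No gene passed a test of the difference between gates. For CD229neg against CD229pos CD11cneg cells, edgeR called 0 of 13187 differences and DESeq2 0, with 585 at an unadjusted p under 0.05. For CD229neg against CD229pos CD11cpos cells, edgeR called 0 and DESeq2 0, with 506 at an unadjusted p under 0.05. For Fn1 the log2 difference of the Egr2KO effect, CD229neg minus CD229pos CD11cneg, was 0.43 ± 0.29 (SE), and for St8sia6 it was 0.01 ± 0.29.

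The ungated 5-week cells are separate libraries in a table normalized on its own. There 0.936% of genes tested passed (0.299% higher and 0.638% lower), and of the 18 genes 16 had the same sign and 8 passed, 6 higher and 2 lower. St8sia6 had 21.2 and 18.5 CPM in Egr2KO and 83.1 and 62.8 CPM in Cre libraries, a drop set beside the 6-week gates without a test (log2 -1.90, edgeR adjusted p = 1.99e-05). Lgi2, with 110.3 and 133 CPM in Egr2KO and 55.3 and 54.7 CPM in Cre libraries, and Tmem51, with 21.03 and 22.4 CPM in Egr2KO and 9.32 and 9.76 CPM in Cre libraries, also passed. Fn1 had the other sign, with 1953 and 1841 CPM in Egr2KO and 1751 and 2413 CPM in Cre libraries, which overlapped, and Ide was the other exception (log2 0.08).

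**Figure D3:**
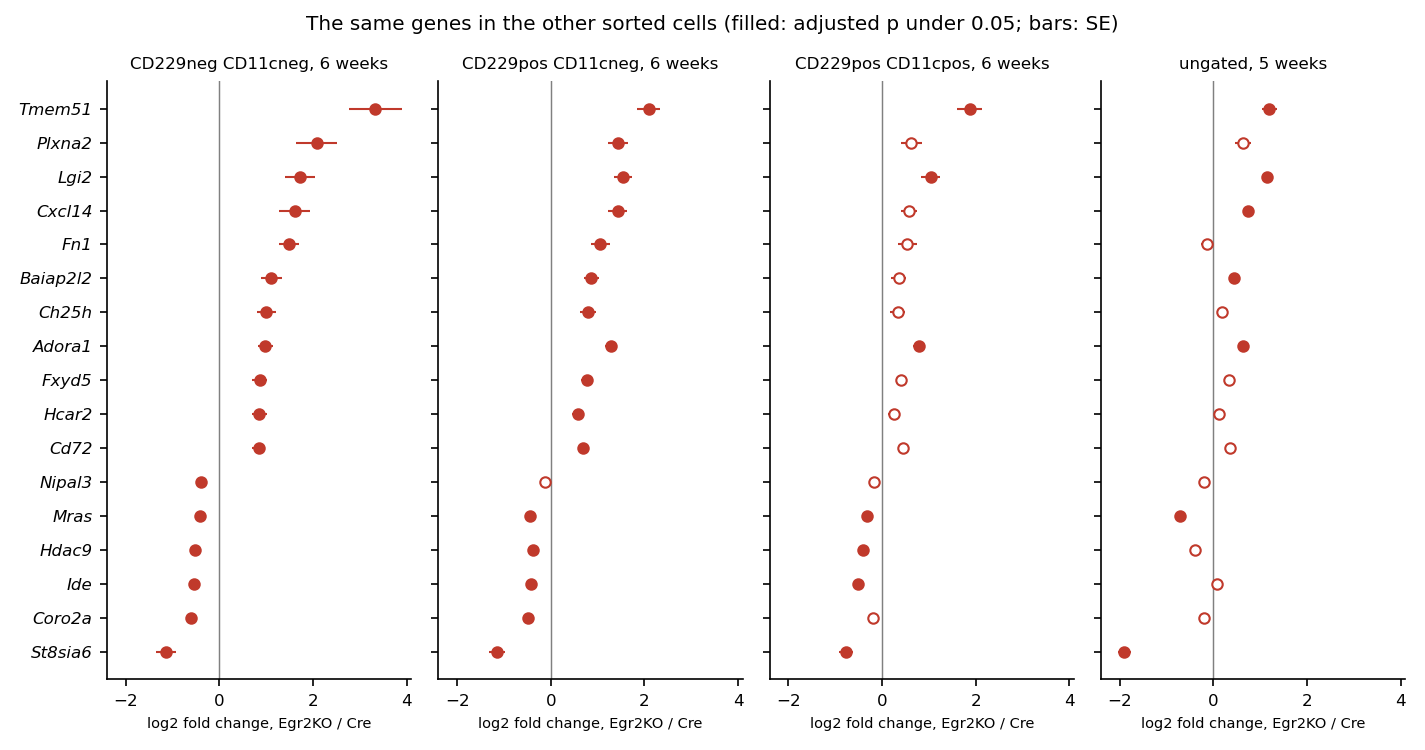
Log2 fold change, Egr2KO over Cre, with its SE, of 17 of the 18 genes (without 4930563J15Rik, which had no read in some groups) in 4 sorted populations; filled points passed the test. Points keep their side of 0 in the 3 gates at 6 weeks, and Fn1 and Ide cross it at 5 weeks.

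At baseline fewer of the genes kept their sign. Of the 18 genes, 11 had the same sign and 1 passed, where 0.243% of all genes did (0.0303% lower). That gene was Coro2a, with 42.9 and 44.8 CPM in Egr2KO and 84.2, 92.8 and 77.6 CPM in Cre libraries (log2 -0.95 ± 0.09; edgeR adjusted p = 2.47e-06). St8sia6 was lower in both Egr2KO libraries too, with 8.58 and 9.66 CPM in Egr2KO and 17.1, 17.2 and 17.1 CPM in Cre libraries (edgeR adjusted p = 0.237). Fn1 was nearly silent, at 3.10 and 2.80 CPM in Egr2KO and 1.65, 1.15 and 0.496 CPM in Cre libraries, and Lgi2 stayed under 1 CPM in all 5 libraries. Both Egr2KO baseline libraries and no Cre baseline library carry the PE150 tag, so at baseline it and the genotype cannot be told apart. The Egr2KO effect in CD229neg cells minus that at baseline passed for 2 genes (0.0152%), both lower, and for none of the 18.

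Genes were also grouped by function. Of 24 disease-associated microglia genes, 23 had a positive log2 fold change, and in 14 every Egr2KO library lay above every Cre library, against 5.95% of all genes tested. Only Fn1 passed the test. The median log2 fold change was 0.48, beside 0.01 over all genes tested. Igf1, a growth factor, had 45.1, 43.99 and 50.2 CPM in Egr2KO and 13.5, 27.6 and 25.2 CPM in Cre libraries. Apoe, the lipid carrier, had 817, 765 and 936 CPM in Egr2KO and 522, 465 and 428 CPM in Cre libraries. Neither overlapped between genotypes. Lpl, lipoprotein lipase, had 401, 385 and 461 CPM in Egr2KO and 206, 255 and 252 CPM in Cre libraries (log2 0.80; edgeR adjusted p = 0.0675). Spp1, osteopontin, had 114, 122 and 113 CPM in Egr2KO and 38.04, 87.2 and 68.2 CPM in Cre libraries. These values also separated by genotype, with the Cre library numbered 1 lowest for Lpl and Spp1. The list's 2 sorting genes, Itgax and Ly9, and Clec7a were among its smallest changes.

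The homeostatic list looked similar by count but not by library. Of its 20 genes, 17 had a positive log2 fold change (median 0.22), none passed, and in none did the genotypes separate. Cx3cr1 had 2043, 1507 and 2340 CPM in Egr2KO and 2101, 1504 and 1360 CPM in Cre libraries, so the 3 libraries with the largest share of reads in the top 50 genes, 2 Egr2KO and 1 Cre, were the highest. Without both libraries numbered 3, 6 of the 20 homeostatic genes were positive and their median was -0.016. In that same setting 22 of the 24 disease-associated genes stayed positive, with a median of 0.44, and 15 did not overlap, against 16.8% of all genes in 2 against 2 libraries. Without the libraries numbered 3 the homeostatic median thus fell to near 0, and the disease-associated median stayed positive. That split was chosen after seeing the data. It keeps the Cre library numbered 1, the lowest of the 6 for Fn1, Lpl and Spp1, so it cannot show how far the disease-associated median rests on other libraries.

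Interferon response genes, which defend against viruses, had small positive values. Of 25 genes, 23 were positive, beside 52.1% of all genes tested, with a median log2 fold change of 0.23. In 11 every Egr2KO library was above every Cre library, beside 5.95% of all genes, and none passed. Ifitm3, an antiviral membrane protein, had 30.8, 38.9 and 29.9 CPM in Egr2KO and 18.5, 26.6 and 21.8 CPM in Cre libraries. Ifi44 had 4.72, 5.50 and 4.94 CPM in Egr2KO and 2.47, 4.12 and 2.39 CPM in Cre libraries. The list's median was 0.48 in CD229pos CD11cneg cells, 0.24 in CD229pos CD11cpos cells, 0.28 at 5 weeks and -0.26 at baseline. In the same order, the disease-associated median was 0.46, 0.09, -0.27 and -0.23. The disease-associated median was thus above 0 in the 6-week CD229neg cells and below 0 in the 5-week ungated cells, a difference between tables that was not tested. Single members differed from it: Ly9 was positive and Itgax negative in both.

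Among metabolic and clearance genes, 14 of 15 glycolysis genes were positive (median 0.23), 7 were higher without overlap and none passed. Over all genes tested, 5.95% were higher without overlap, the share against which this count and those of the next lists are read. Ldha, lactate dehydrogenase A, had 151, 152 and 167 CPM in Egr2KO and 133, 121 and 118 CPM in Cre libraries, and Slc16a3, a lactate exporter, had 123, 132 and 118 CPM in Egr2KO and 95.9, 106 and 109 CPM in Cre libraries. In both, every Egr2KO library was above every Cre library, with log2 fold changes of 0.33 and 0.27. Lysosomal genes had a median of 0.20, with 5 of 20 higher without overlap, among them Gusb, beta-glucuronidase (log2 0.36), and without both libraries numbered 3 the median was 0.11. Atp6v0d2, a proton pump subunit, was near the floor, with 0 reads in all 3 Egr2KO libraries and 2, 4 and 4 reads in Cre libraries. The Cre values were 0.275, 0.337 and 0.290 CPM (edgeR adjusted p = 0.591). Complement and Fc receptor genes had a median of 0.26, with 2 of 15 higher without overlap, C3 and the C5a receptor C5ar1 (log2 0.73 and 0.28). The 10 MHC class I genes were all positive, with a median of 0.20 and 2 without overlap. None of these lists had a member past the test.

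Other lists had medians nearer 0 in CD229neg cells. MHC class II genes had a median of -0.02 and cell cycle genes 0.11, with no cell cycle gene separated by genotype. Cholesterol synthesis genes had a median of -0.03 and alternative activation genes 0.00, although Flt1, a VEGF receptor in the alternative activation list, had 34.9, 37.6 and 31.9 CPM in Egr2KO and 9.89, 20.2 and 18.7 CPM in Cre libraries. Immediate early genes had a median of -0.12 and Polycomb genes -0.03, with 3 of 17 Polycomb genes lower without overlap (Eed, Jarid2 and Kdm6a), beside 5.85% of all genes. TREM2 signaling genes had a median of 0.09, lineage transcription factors 0.09, cholesterol export genes 0.10 and cytokines 0.16, where Cxcl14 passed and Ccl3, Ccl4 and Ccl12 were higher without overlap. In the matrix list (median 0.11), Cd44, the hyaluronan receptor, had 15.5, 16.2 and 16.1 CPM in Egr2KO and 3.16, 10.8 and 10.6 CPM in Cre libraries, and Vcam1, an adhesion molecule, 13.7, 9.77 and 16.3 CPM in Egr2KO and 18.4, 16.996 and 18.7 CPM in Cre libraries. Cd44 was higher and Vcam1 lower in every Egr2KO library, but neither passed the test (edgeR adjusted p = 0.425 and 0.513).

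**Figure D4:**
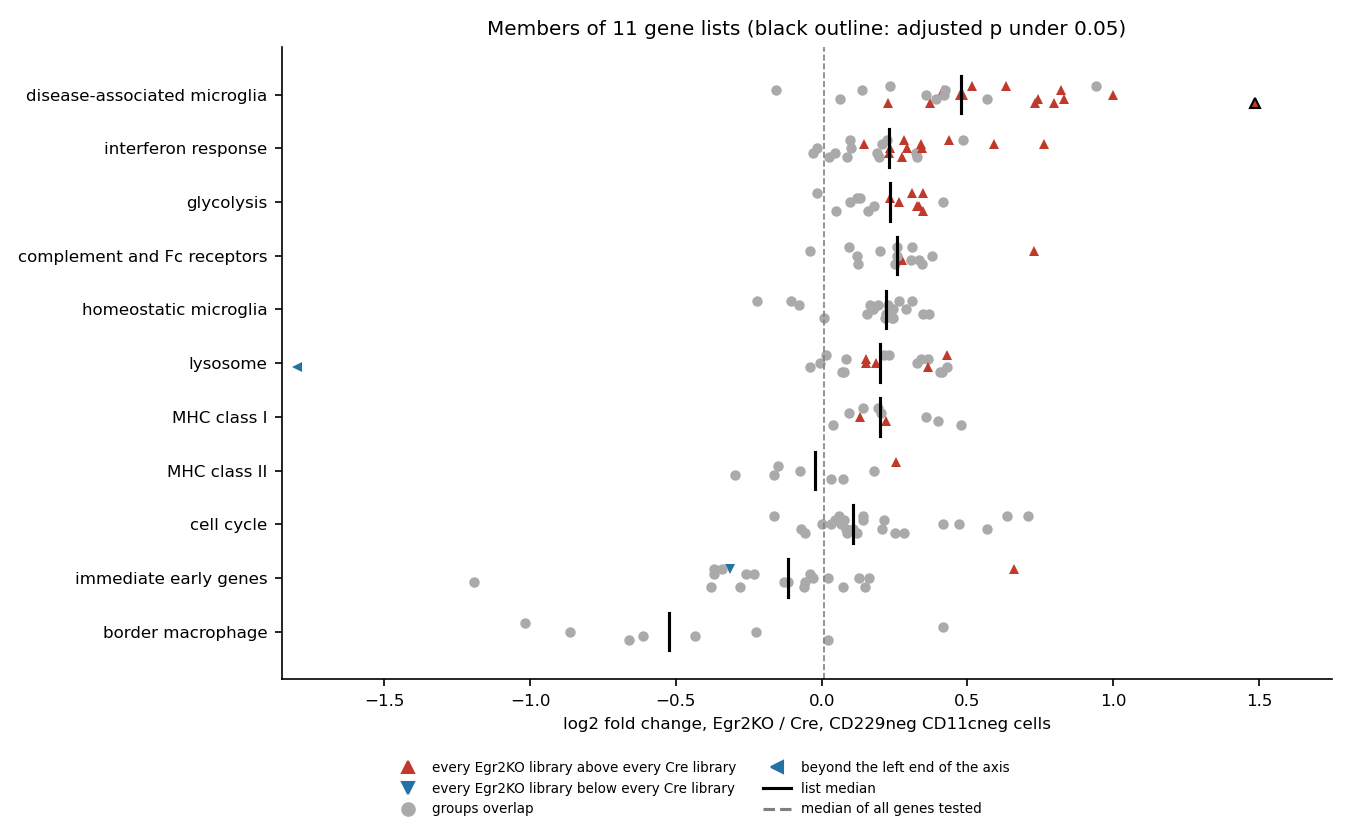
Log2 fold change, Egr2KO over Cre in CD229neg CD11cneg cells, of the tested members of 11 gene lists; up and down triangles mark genes whose 3 Egr2KO libraries all lie above (red) or below (blue) the Cre libraries, black bars list medians and the dashed line the median of all genes; the left arrow is Atp6v0d2, beyond the axis. The disease-associated list lies farthest right, with a median of 0.48 and Fn1 at its end.

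A wider set was taken from Cre libraries outside this comparison: 1076 genes at least 2-fold higher, and past the test, in Cre CD229pos CD11cneg cells against Cre baseline cells, which may share pools with the Cre CD229neg cells. In CD229neg cells 71.6% of them had a positive log2 fold change for Egr2KO over Cre, beside 52.1% of all genes tested, and 16.2% were higher without overlap, beside 5.95%. The set makes up 8.16% of all genes tested. Of the 12 genes past the test and higher in Egr2KO, 11 belong to it, and of the 6 lower genes 1 does, St8sia6. The set holds 22.2% of the 785 genes higher without overlap. The median log2 fold change of the set was 0.19. Of 185 genes at least 2-fold lower in Cre CD229pos cells, 14.1% were lower without overlap in Egr2KO CD229neg cells, beside 5.85% of all genes.

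Genes beside Egr2 on chromosome 10 were read as a group. Of 34 genes tested within 5 Mb of the start of Egr2, 1 passed the test in CD229neg cells, where 0.136% of all genes did, and 4 passed in CD229pos CD11cneg cells, where 3.00% did. The gene that passed was 4930563J15Rik, a non-coding transcript on the minus strand at chr10:67568518-67571959 (mm10), 26.3 kb past the end of Egr2. It had 1.14, 1.07 and 1.48 CPM in Egr2KO libraries and 0 reads in all 3 Cre libraries. Its 27 Egr2KO reads against a floor of 3 reads over the Cre group make it at least 12.8-fold higher, for counting error only. The same split was seen in CD229pos CD11cneg cells, with 5.96, 6.85 and 6.61 CPM in Egr2KO and 0 reads in every Cre library.

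Further along, Arid5b, a DNA-binding regulator, had 109.8, 88.4 and 110.0 CPM in Egr2KO and 72.4, 76.3 and 78.1 CPM in Cre libraries (edgeR adjusted p = 0.107). It was also higher without overlap at baseline, with 103 and 115 CPM in Egr2KO and 72.7, 64.7 and 68.4 CPM in Cre libraries (edgeR adjusted p = 0.00263), where Egr2 itself overlapped. At baseline the PE150 tag and the genotype cannot be told apart. Rtkn2 had 2.15, 3.94 and 3.71 CPM in Egr2KO and 0.824, 1.60 and 2.03 CPM in Cre libraries, and Zfp365, a zinc finger gene, 0.716, 1.15 and 1.48 CPM in Egr2KO and 0.549, 0.505 and 0 CPM in Cre libraries. All 3 lay within 1 Mb of Egr2 and passed the test in CD229pos CD11cneg cells. Of the 34 neighbours, 8 did not overlap between genotypes in CD229neg cells, beside 11.8% of all genes tested. The edited allele and the loss of the protein cannot be told apart here.

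**Figure D5:**
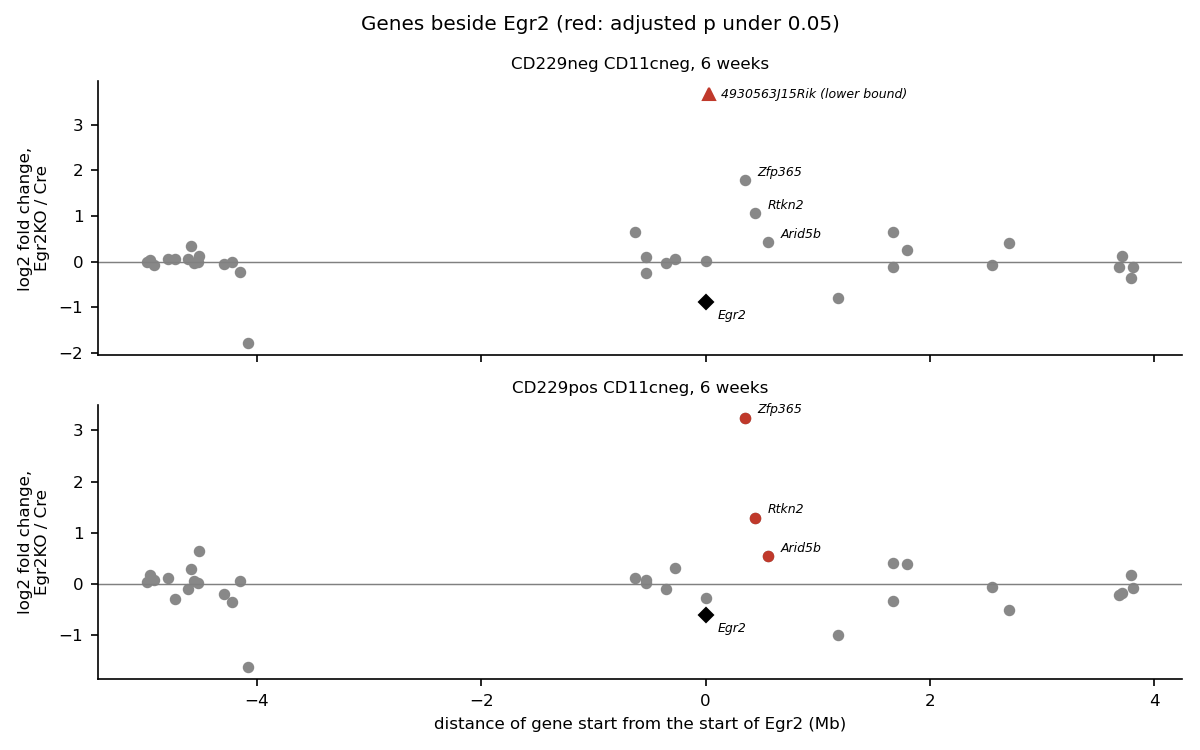
Log2 fold change, Egr2KO over Cre, of the genes tested within 5 Mb of the start of Egr2, by distance of their start, in CD229neg CD11cneg (top) and CD229pos CD11cneg (bottom) cells; red points passed the test and the triangle is a lower bound. The genes past the test lie within 1 Mb to the right of Egr2, and 4930563J15Rik is left out of the lower panel because the Cre libraries had no read.

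EGR proteins bind a GC-rich motif, so the start sites of the 18 genes were searched for GCGNGGGCG on both strands. A RefSeq promoter window (GRCm38.p6, 250 bases before to 50 after the start) matched the table's transcript start within 100 bases for 13 of the 18. The motif was in 2 of these 13 windows (15.4%), Plxna2 and Adora1, and in 10.7% of the windows of all 9996 tested genes with one. It is absent from the other 11, Lgi2, Cxcl14 and Coro2a among them. The 2 windows are shown because they are the ones among the genes past the test that hold the motif, in capitals, 5′ to 3′ on the gene's own strand. Plxna2 is the plus strand of chr1:194619579-194619878 and Adora1 the minus strand of chr1:134235408-134235707.
Plxna2: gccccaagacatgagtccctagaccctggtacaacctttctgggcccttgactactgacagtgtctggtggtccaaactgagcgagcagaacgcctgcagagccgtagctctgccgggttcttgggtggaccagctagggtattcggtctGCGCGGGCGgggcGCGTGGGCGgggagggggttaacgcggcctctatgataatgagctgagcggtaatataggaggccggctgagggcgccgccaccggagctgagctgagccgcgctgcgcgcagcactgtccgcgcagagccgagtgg
Adora1: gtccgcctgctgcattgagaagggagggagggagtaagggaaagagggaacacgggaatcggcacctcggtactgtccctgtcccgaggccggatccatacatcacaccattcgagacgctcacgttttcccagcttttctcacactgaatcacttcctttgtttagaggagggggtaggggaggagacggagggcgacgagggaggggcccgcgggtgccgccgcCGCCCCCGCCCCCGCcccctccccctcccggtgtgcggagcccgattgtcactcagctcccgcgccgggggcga
Each window holds 2 matches, side by side on the gene's strand in Plxna2 and overlapping on the opposite strand in Adora1. These are letter matches and no binding was measured.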

How the data were processed

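RNA of sorted microglia was sequenced as polyadenylated, strand-specific (dUTP) libraries. The authors deposited raw read counts per gene, 25124 genes with 1 RefSeq transcript each. The submitters' processing notes name mm10/GRCm38, HOMER 4.11, DESeq2, STAR 2.7.0f and fastp 0.20.0 without saying which did what; the strand setting of the counting is not given in the sources used here.

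All 23 libraries of the 6-week Egr2 table (8 groups, 15 residual degrees of freedom) were fitted together in edgeR 4.0.16 (R 4.3.3): filterByExpr by group, TMM, quasi-likelihood F tests (glmQLFit with legacy=FALSE), Benjamini-Hochberg adjusted p under 0.05. The 4 ungated 5-week libraries (12387 genes, 2 residual degrees of freedom) were fitted separately. CPM are counts over the TMM-scaled library total times 1000000. SEs come from the quasi-likelihood fit. Paralogs, such as MHC class I genes, can share reads.

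Alternatives were DESeq2 1.42.0, RLE scaling, no filter, the earlier quasi-likelihood fit, the 6 libraries alone, a replicate block, PE150 as a covariate or alone, and each library left out. A robust fit and leaving out both libraries numbered 3 were chosen after seeing the data. On simulated counts for CD229neg cells (12967 genes), 95 of 100 genes changed 2-fold and 100 of 100 changed 4-fold were recovered, with 8 false calls. The changes were planted together and only in well-counted genes. Libraries were drawn independently, with the same expected gene shares apart from the planted changes. These rates therefore do not carry over to the real libraries, which differed in composition, or to genes with few reads. Between replicates the chi-square per gene was 2.86 to 8.40, so no pair was within sampling noise.

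The genes, lists and comparisons were chosen with earlier results of these data known. Named genes were the EGR, NAB and gate genes with Clec7a and Cx3cr1; per direction, up to 12 genes past the test without overlap, by size, with at least 5 CPM and no predicted names, completed by the smallest p; up to 3 members a list by p; and up to 5 a direction past a test between gates. All other genes past the test and the neighbours of Egr2 were added, and Apoe, Igf1, Spp1 and the other list members were named after their values were seen. The 19 lists and 10 marker lists hold no set test.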

Additional observations from a re-analysis of the deposited data

Results flagged for a closer look

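2 genes differed in their Egr2KO effect between CD229neg cells and baseline by a test of that difference, and both are on the immediate early gene list, whose median log2 fold change was -0.12 in CD229neg cells and 0.99 at baseline. For Fosb the log2 difference of effects, CD229neg minus baseline, was -6.80 ± 1.14 (SE; edgeR adjusted p = 0.0354). In CD229neg cells Fosb had 25.3, 22.1 and 5.19 CPM in Egr2KO and 30.8, 18.3 and 80.1 CPM in Cre libraries, which overlapped. At baseline it had 469 and 57.5 CPM in Egr2KO and 0.681, 0.289 and 15.4 CPM in Cre libraries, where both Egr2KO libraries were above all Cre libraries. For Klf2, a Kruppel-like factor, the log2 difference was -2.58 ± 0.46 (SE; edgeR adjusted p = 0.0385). Klf2 had 22.6, 28.1 and 15.1 CPM in Egr2KO and 21.01, 27.2 and 40.03 CPM in Cre CD229neg libraries, and at baseline 96.2 and 34.7 CPM in Egr2KO and 12.4, 12.1 and 17.8 CPM in Cre libraries. Egr1 at baseline had 1537 and 665 CPM in Egr2KO and 161, 14.9 and 457 CPM in Cre libraries, and these values also differed widely within a genotype. Both baseline Egr2KO libraries and no baseline Cre library carry the PE150 tag. Leaving out 1 CD229neg library gave log2 differences of -7.19 to -5.89 for Fosb and -2.85 to -2.29 for Klf2, with edgeR adjusted p up to 0.250 for both. DESeq2 gave -6.89 for Fosb (adjusted p = 0.0782) and -2.62 for Klf2 (adjusted p = 0.00592). With the tag as a covariate the log2 differences were -6.35 for Fosb and -2.24 for Klf2, at an edgeR adjusted p of 0.0758 for both. Btg1, Btg2 and Ier5 passed in their place. At baseline the tag follows the genotype, so the covariate rested on the 6-week gates and cannot show a tag effect at baseline.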

How the results depend on the processing

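Against 18 genes past the test in CD229neg cells, RLE scaling gave 17, the earlier quasi-likelihood fit 25 and PE150 libraries alone 21. Counts moved more with no filter (29), DESeq2 (37), the PE150 covariate (31), the 6 libraries alone (107), a robust fit (8) and without both libraries numbered 3 (4); the cause was not tested. Leaving out 1 library gave 2 to 16. A replicate block, fitted on the 6 libraries alone, gave 245, against 107 there without it, and included all 18. Deviations from the genotype mean correlated at 0.19, 0.13 and -0.08 for same-numbered libraries and at -0.25 to 0.17 for other pairs. With 3 libraries a genotype, these values cannot tell whether the numbers pair the libraries.

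The difference between CD229neg and CD229pos CD11cpos cells gave 1 gene with a replicate block, against 0. The difference from baseline gave 14 with no filter and 19 with DESeq2, against 2, and 0 to 2 when 1 CD229neg library was left out (0 without any of the 3 Egr2KO libraries or Cre library 3, 1 without Cre library 2). The 5-week comparison gave 288 with a replicate block, against 116, and 115 to 279 when 1 library was left out (279 without Cre library 1 and 181 without Cre library 2).

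Signs reversed for values that had not passed the test. Without both libraries numbered 3 the log2 fold change was 0.067 for Egr1, -0.11 for Ly9, -0.014 for Cx3cr1 and 0.081 for Klf2, and the homeostatic median was -0.016; Nab1 was -0.015 in PE150 libraries alone. Leaving out 1 library gave -0.11 to 0.66 for Egr3, -0.11 to 0.32 for Ly9, -0.36 to 0.17 for Itgax and -0.00029 to 0.12 for Nab1. The 18 genes kept their direction under all 16 alternatives, which their lack of overlap between genotypes made likely beforehand. The replicate block was not fitted for the difference from baseline.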

Other observations

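Zfp618, a zinc finger gene, stood apart by library number and not by genotype alone. In CD229neg cells it had 1.86, 0.903 and 0.494 CPM in Egr2KO and 111, 51.5 and 0.941 CPM in Cre libraries (edgeR adjusted p = 0.132). The Cre libraries numbered 1 and 2 were high and number 3 was at the Egr2KO level. The same order of Cre libraries returned in the other gates: 6.13, 7.94 and 11.5 CPM in Egr2KO and 96.3, 45.6 and 3.71 CPM in Cre CD229pos CD11cneg libraries, and 7.68, 9.0005 and 12.3 CPM in Egr2KO and 47.5, 39.2 and 7.92 CPM in Cre CD229pos CD11cpos libraries. At 5 weeks it had 4.23 and 4.28 CPM in Egr2KO and 2.85 and 4.79 CPM in Cre libraries. At baseline no library passed 0.17 CPM. The labels do not say whether same-numbered gates come from the same mice.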
